A study of Mus musculus with 6 samples.

Results

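The genes described here are 10 interferon-inducible effectors of antiviral defence, namely Rsad2 (viperin), Cmpk2, Samhd1, Mx1, Mx2, Bst2 (tetherin), Xaf1, Rtp4, Ifi35 and Ifi44. They were chosen by name, as the rows whose mouse symbol in the GENCODE M21 annotation is one of the 10, out of 22442 genes in the deposited table. The names were picked with earlier results of these data known, so their comparison with all genes is not independent of the data. All 10 had a row and were above 0 in at least 1 library. The study sequenced poly(A) RNA from mTECs, which are epithelial cells of the mouse renal tubule, to ask how Stat3 acts on the transcriptome of LPS-treated tubular cells. All 6 samples received LPS, the lipopolysaccharide of bacterial outer membranes, at 20 μg/ml for 24 h, so no library shows the cells without LPS. Beforehand, 3 of them had been given a negative control by transfection and the other 3 an RNA directed at Stat3, an siRNA by the labels, while the study's methods name both shRNA and siRNA for Stat3. The labels describe magnetically sorted cells and the methods an immortalised line received as a gift.

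The groups are named by their labels, LPS-labelled and silenced-labelled, because the targeted transcript did not separate them. The study reported Stat3 knockdown in mTECs by real-time PCR and western blot, without saying whether these were the sequenced cells. Stat3 stood at 34.6, 31.4 and 35.2 FPKM (counts of fragments per gene after division by gene length and library size) in the LPS-labelled libraries and at 30.8, 35.2 and 34.3 FPKM in the silenced-labelled libraries, and the groups overlapped (log2 fold change -0.014 ± 0.069 SE, limma with Benjamini-Hochberg adjusted p = 0.944). Every direction below is therefore a difference between labels. Depth was even, at 24084846 to 25422164 fragments per library. Of the tubule markers Cdh16, Pax8, Pax2 and Epcam were expressed at 32.3 FPKM or more in every library, whereas Slc34a1, Umod and Aqp2, which define single tubule segments, were at 0 throughout. Among the 10 tested of 15 tubule markers, Pax2, Aqp1, Pax8 and Cdh16 rose and Krt18 fell. The list's summed level was 4355 to 4495 FPKM in the LPS-labelled and 4211 to 4278 FPKM in the silenced-labelled libraries. It rested mostly on the keratin genes Krt8, Krt18 and Krt7. Their means were 1205, 1290 and 1195 FPKM in the LPS-labelled and 1170, 1164 and 1075 FPKM in the silenced-labelled libraries. Of 12 leukocyte markers 6 were tested and only Csf1r rose past the threshold, while none fell past it. Of these 6, 4 had a log2 fold change below 0, and the median was -0.11. The sums of the list were 122 to 129 and 138 to 147 FPKM, with Siglech at 0 in every library. The part of these shifts in the results below was not tested, and in bulk RNA fewer expressing cells and less RNA per cell cannot be told apart.

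Type I and III interferons signal through JAK kinases to ISGF3, a complex with Stat2 and Irf9 that binds the interferon-stimulated response element (ISRE) in the promoters of its targets. Stat3 dimers bind a different palindromic element, the interferon-gamma activated site (GAS). The effectors encoded by the targets act at separate steps of viral replication, from the nucleotides a polymerase uses to the release of new particles, and several are also induced in uninfected cells by LPS through secreted interferon-beta.

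Promoter windows of 300 bases, 250 before and 50 after the annotated start, were found for 7 of the 10 genes in a RefSeq table of GRCm38.p6, and not for Mx1, Mx2 and Rtp4. They were searched on both strands for an ISRE pattern, GAAANNGAAA, and a GAS pattern, TTCNNNGAA. The stretches with a match upstream of the start are given here, 5′ to 3′ on the strand of the gene, because ISGF3 and Stat3 are the factors known for these letters, and capitals mark the matches. The Bst2 stretch is chr8:71537575-71537620, the Rsad2 stretch chr12:26456551-26456584 and the Samhd1 stretch chr2:157135311-157135343, all on the minus strand.
Bst2: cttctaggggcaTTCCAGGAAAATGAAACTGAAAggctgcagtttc
Rsad2: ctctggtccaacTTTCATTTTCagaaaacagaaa
Samhd1: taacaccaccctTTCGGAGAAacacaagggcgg
In Bst2 a GAS match 136 to 128 bases before the start overlaps an ISRE match at 130 to 121 bases. That ISRE match overlaps another at 124 to 115 bases, which the GAS match does not reach. In Rsad2 the ISRE match lies on the opposite strand, 120 to 111 bases before the start. In Samhd1 the GAS match lies 235 to 227 bases before the start. Ifi35 had a GAS match after its start, which is not shown, and Xaf1, Ifi44 and Cmpk2 had neither pattern in this window. The ISRE pattern was thus in 2 of 7 windows and the GAS pattern in 3 of 7. Over all 32851 windows of the table the shares were 3.44% and 8.30%, and over the 194 windows of genes that were lower past the threshold in silenced-labelled libraries they were 20.1% and 10.3%. A match is a description of letters and not a binding site, and a window without one says nothing of the factor.

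In mTECs under LPS the effectors spanned more than 2 orders of magnitude, and 5 of them fell in the silenced-labelled libraries. Those 5 were Bst2, Xaf1, Ifi44, Rtp4 and Ifi35, and none rose. Samhd1, the other abundant member, had group means that differed by 1.09-fold. The tests were made by limma on log2(FPKM + 0.1) over the 11723 genes with a mean of at least 0.5 FPKM, with Benjamini-Hochberg adjustment and a threshold of 0.05. Of these genes 195 fell (1.66%) and 379 changed in either direction (3.23%). Among the members, 8 passed the filter, of which 5 fell and 3 did not pass the threshold. Their median log2 fold change was -1.53, against -0.0076 over all tested genes. The groups did not overlap, with silenced-labelled libraries lower, for 7 of these 8 genes, as for 13.2% of all tested genes. Cmpk2 passed the filter through its LPS-labelled level alone, its silenced-labelled mean being 0.336 FPKM. Mx1 and Mx2 were under the filter, and their values come from fitting all 16837 genes above 0 together.

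**Figure D1:**
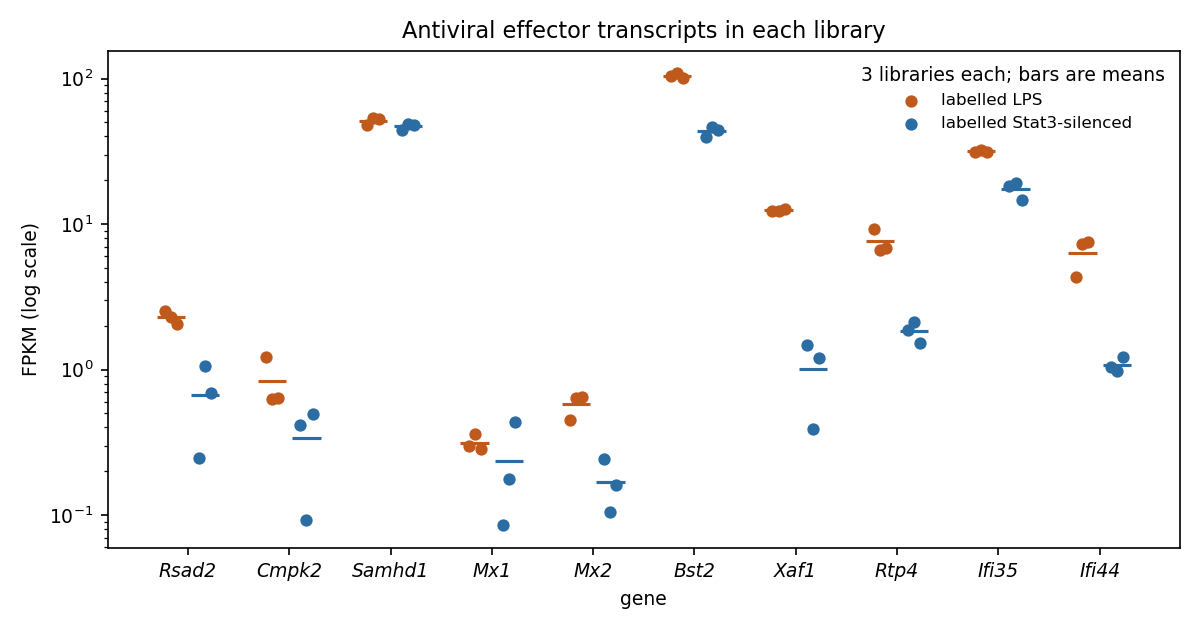
FPKM (log axis) of the 10 effectors in each of the 3 LPS-labelled (orange) and 3 silenced-labelled (blue) libraries, with bars at the group means. The blue points lie below every orange point except for Samhd1 and Mx1, where the groups overlap.

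Levels in FPKM, which are per length, were ordered Bst2, Samhd1, Ifi35, Xaf1, Rtp4, Ifi44, Rsad2, Cmpk2, Mx2 and Mx1 in the LPS-labelled libraries. The mean of Bst2 was above that of 88.5% of tested genes and the mean of Rsad2 above that of 12.5%. Neighbours in this order were separated in every LPS-labelled library except Rtp4 from Ifi44 and Cmpk2 from Mx2, whose ranges overlapped. In the silenced-labelled libraries Samhd1 came first and Bst2 second, with overlapping ranges, and Xaf1 moved from 4th to 6th. There the ranges of Ifi44, Xaf1 and Rsad2 overlapped, as did those of Cmpk2, Mx1 and Mx2. The ranges of Xaf1 and Rsad2 also overlapped those of Cmpk2 and Mx1.

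Bst2 encodes tetherin, a membrane protein that holds budding enveloped virions on the cell surface. It stood at 103, 109 and 101 FPKM in the LPS-labelled libraries and at 39.6, 46.5 and 44.4 FPKM in the silenced-labelled libraries. These levels rested on 1276 to 1396 and on 510 to 583 fragments, and the groups were far apart relative to their spread. The group means were 104 ± 3.85 and 43.5 ± 3.56 FPKM (SD, n = 3 each), a level 58.3% lower. Its log2 fold change was -1.26 ± 0.063 (SE), with a 95% confidence interval of -1.41 to -1.12 and an adjusted p of 2.44e-05 by limma, the smallest among the members. Bst2 (ENSMUSG00000046718) lies at chr8:71534255-71537456 on the minus strand of GRCm38, and its promoter holds the overlapping GAS and ISRE letters shown above.

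Xaf1 encodes XIAP-associated factor 1, which binds the caspase inhibitor XIAP and is known to favour apoptosis. Its level was 12.3, 12.4 and 12.7 FPKM in the LPS-labelled libraries and 1.46, 0.390 and 1.19 FPKM in the silenced-labelled libraries. The LPS-labelled libraries differed little from each other, while silenced-labelled replicate 2 held 9 fragments against 35 and 29 in the other two of its group. Xaf1 had a log2 fold change of -3.66 ± 0.38 (SE; 95% confidence interval -4.52 to -2.80, limma adjusted p = 0.00157), which is the largest difference among the 10 genes. Without silenced-labelled replicate 2 it was -3.15, and the call held. Xaf1 (ENSMUSG00000040483) lies at chr11:72301629-72313733 on the plus strand.

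Rtp4, a Golgi chaperone of cell-surface receptors that is also induced by interferon, stood at 9.29, 6.66 and 6.89 FPKM in the LPS-labelled libraries. In the silenced-labelled libraries it stood at 1.87, 2.11 and 1.53 FPKM. LPS-labelled replicate 1 was the highest, the groups did not overlap, and the silenced-labelled mean was 75.9% lower. Rtp4 thus had a log2 fold change of -1.99 ± 0.18 (SE; limma adjusted p = 8.92e-04). The gene (ENSMUSG00000033355, chr16:23520291-23614222, plus strand) overlaps exons of Gm45338, a processed transcript on the same strand, but 0 of the 739 stretches of 31 bases in its coding sequence occur in another gene.

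Ifi44, a cytoplasmic interferon-induced protein, was at 4.32, 7.27 and 7.50 FPKM in the LPS-labelled libraries and at 1.04, 0.984 and 1.21 FPKM in the silenced-labelled libraries. LPS-labelled replicate 1 was the low one of its group and still held 136 fragments against at most 39 in the silenced-labelled libraries. The gene fell by 2.42 on the log2 scale (SE 0.23, 95% confidence interval -2.94 to -1.89, limma adjusted p = 0.00122). Ifi44 (ENSMUSG00000028037) lies at chr3:151730922-151749960 on the minus strand. Its relative Ifi44l was at 0 in every library.

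Ifi35, which forms a complex with Nmi, was at 31.4, 32.4 and 31.1 FPKM in the LPS-labelled libraries and at 18.4, 19.2 and 14.6 FPKM in the silenced-labelled libraries. The spread was wider among the silenced-labelled libraries, of which replicate 3 was the lowest. The log2 fold change was -0.87 ± 0.099 (SE; limma adjusted p = 0.00272), the smallest of the 5 that passed. Ifi35 (ENSMUSG00000010358, chr11:101448407-101458698, plus strand) overlaps the antisense gene Gm11626 over 20.9% of the 31-base stretches of its coding sequence, and since the strandedness of the libraries is not stated, reads of the pair cannot be told apart. Nmi stood at 7.34, 7.72 and 5.08 FPKM in the LPS-labelled and at 4.46, 5.82 and 5.51 FPKM in the silenced-labelled libraries, and the groups overlapped (log2 fold change -0.33, adjusted p = 0.380 by limma).

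**Figure D2:**
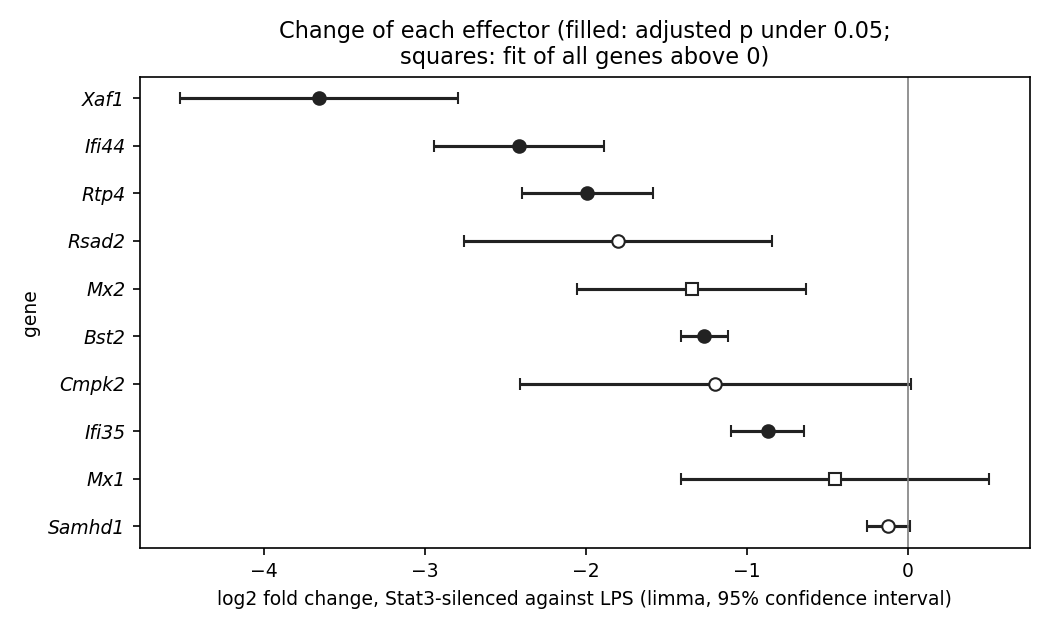
Log2 fold change of each effector, silenced-labelled against LPS-labelled libraries, with 95% confidence intervals from limma (3 libraries a group). Filled circles mark the 5 genes with an adjusted p under 0.05, from Xaf1 at -3.66 to Ifi35 at -0.87, and squares mark Mx1 and Mx2, which came from the fit of all genes above 0.

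Rsad2 and Cmpk2 encode enzymes of pyrimidine nucleotides. Viperin, a radical SAM enzyme, turns CTP into a chain terminator of viral RNA polymerases, and Cmpk2 encodes a mitochondrial kinase of CMP and UMP. The genes lie 12.8 kb apart on chromosome 12 with divergent orientation and no protein-coding gene between them (chr12:26442746-26456452 on the minus strand and chr12:26469204-26479837 on the plus strand). Rsad2 was at 2.51, 2.30 and 2.05 FPKM in the LPS-labelled libraries and at 0.247, 1.06 and 0.693 FPKM in the silenced-labelled libraries. Every LPS-labelled library was above every silenced-labelled one, but the silenced-labelled libraries ranged from 7 to 29 fragments. The log2 fold change was -1.80 ± 0.42 (SE; 95% confidence interval -2.76 to -0.84) and did not pass the threshold (limma adjusted p = 0.0637). It passed with a pseudocount of 1 (limma adjusted p = 0.0304), with voom on the recovered fragments (0.0150) and without silenced-labelled replicate 2 (0.0452), within a range of 0.0150 to 0.160 over its 16 alternatives.

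Cmpk2 was at 1.23, 0.629 and 0.640 FPKM in the LPS-labelled libraries and at 0.418, 0.0928 and 0.498 FPKM in the silenced-labelled libraries. The counts behind these levels were small, at 41, 21 and 21 fragments and at 14, 3 and 17 fragments, and the 3 fragments of silenced-labelled replicate 2 have an exact Poisson 95% interval of 0.619 to 8.77. The groups did not overlap, and the log2 fold change of -1.19 had an interval of -2.41 to 0.022 (limma adjusted p = 0.293). The ratio of Rsad2 to Cmpk2 levels in FPKM was 2.05, 3.66 and 3.21 in the LPS-labelled libraries and 0.591, 11.4 and 1.39 in the silenced-labelled libraries. The silenced-labelled ratios lay on both sides of the others, so these data give no direction for the balance of the pair.

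Samhd1, a hydrolase that empties the cell of the deoxynucleotides reverse transcription needs, had a mean level 1.09-fold higher in the LPS-labelled libraries, a difference that did not pass the threshold. It was at 48.0, 53.2 and 52.6 FPKM in the LPS-labelled libraries and at 44.4, 48.9 and 48.3 FPKM in the silenced-labelled libraries. These levels rested on 2293 to 2739 fragments per library, and the groups overlapped. The log2 fold change was -0.12, with a 95% confidence interval of -0.25 to 0.015 (limma adjusted p = 0.340), an interval that lies above those of the 5 members that fell. Samhd1 (ENSMUSG00000027639) lies at chr2:157097533-157135265 on the minus strand.

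Mx1 and Mx2 encode dynamin-like GTPases that act against influenza viruses in the nucleus and against other RNA viruses in the cytoplasm. Many laboratory strains carry defective alleles, and the annotation lists Mx1 as protein-coding and Mx2 as a polymorphic pseudogene. Mx2 was at 0.449, 0.633 and 0.644 FPKM in the LPS-labelled libraries and at 0.244, 0.105 and 0.160 FPKM in the silenced-labelled libraries. It rested on 22 to 31 fragments against 5 to 12, and the groups did not overlap, but the log2 fold change of -1.34 did not pass the threshold (limma adjusted p = 0.0968, all genes above 0). Mx1 was at 0.299, 0.363 and 0.283 FPKM in the LPS-labelled libraries and at 0.0851, 0.176 and 0.439 FPKM in the silenced-labelled libraries. Here silenced-labelled replicate 3, with 21 fragments, was the highest of all 6 libraries. The log2 fold change was -0.45 (95% confidence interval -1.41 to 0.51, limma adjusted p = 0.697). The genes lie 72.4 kb apart on chromosome 16 (chr16:97447035-97462907 on the minus strand and chr16:97535308-97560900 on the plus strand). They share 289 stretches of 31 coding bases, or 14.5% and 14.7% of each, so some fragments may have been counted on either gene.

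Over the 10 genes, the lowest library was always silenced-labelled, for 4 genes replicate 1, for 4 replicate 2 and for 2 replicate 3. The highest library was LPS-labelled for 9 of them, 3 in each replicate. The exact permutation test on 3 against 3 libraries, two-sided over 20 assignments, cannot go below p = 0.1. It gave that value for the 8 genes whose groups did not overlap, and 0.3 for Samhd1 and 0.5 for Mx1. Of the 8, 7 passed the filter, and 13.2% of all tested genes likewise had every silenced-labelled library lower. How often the lowest or highest library falls in either group over all genes is not given here.

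**Figure D3:**
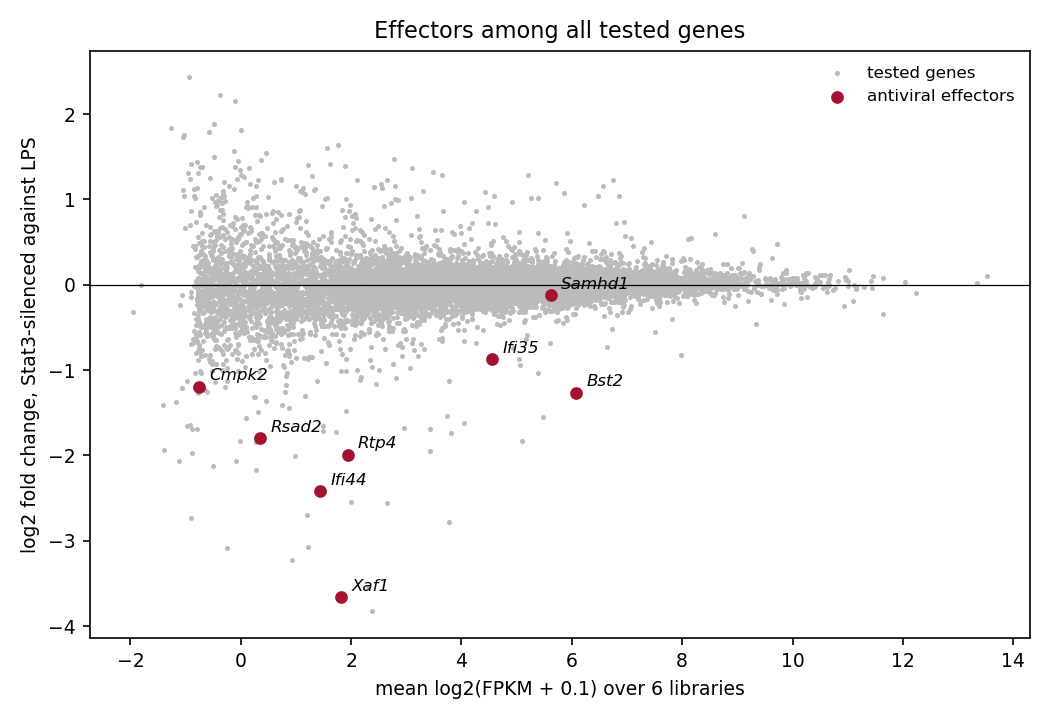
Log2 fold change of the 11723 tested genes (grey) against their mean log2(FPKM + 0.1) over 6 libraries, with the 8 effectors that passed the filter in red. Bst2 and Ifi35 lie below the narrow band of other abundant genes, and Samhd1, at -0.12, lies within it.

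The genes of the interferon signal itself were read from a list of 9, from the receptor to ISGF3 and its companion factors. The list was drawn up with earlier results of these data known, and over all tested genes 1.66% fell. Of its genes, 4 fell and none rose, with a median log2 fold change of -0.19. They included Irf7, a factor for interferon genes (-2.55), and the ISGF3 subunits Irf9 (-1.94) and Stat2 (-0.52), with limma adjusted p of 0.00157, 6.51e-05 and 0.0131. Irf9 was at 21.6, 21.1 and 20.8 FPKM in the LPS-labelled and at 4.59, 6.36 and 5.49 FPKM in the silenced-labelled libraries, and the groups were far apart. The receptor genes Ifnar1 (0.023) and Ifnar2 (0.25), the kinase genes Jak1 (0.04) and Tyk2 (-0.0079) and Irf1 (-0.19) did not pass. The call of Stat2 was lost when LPS-labelled replicate 3, silenced-labelled replicate 1 or silenced-labelled replicate 2 was left out.

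Ifnb1, which encodes interferon-beta, was scarcely detected. It had 2, 2 and 16 fragments in the LPS-labelled libraries and 0, 0 and 1 in the silenced-labelled libraries. Most of its fragments thus came from LPS-labelled replicate 3, and the log2 fold change of -1.84 did not pass (limma adjusted p = 0.277, all genes above 0). That library was the highest of the 6 for 3 members, Xaf1, Ifi44 and Mx2, and LPS-labelled replicates 1 and 2 were each the highest for 3. Whether Ifnb1 has a part in the levels of the members was not tested. Of the 11 interferon genes listed, 8 were above 0 in any library and none reached the filter.

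Other antiviral genes were read from a list of 24 names, of which 23 had a row and 21 were tested. Over all tested genes 1.66% fell, and this list was drawn up with earlier results of these data known. Of its 21 tested genes, 10 fell and none rose, and the median log2 fold change was -0.31. The 4 with the largest fall were Ifi27 (-1.83, limma adjusted p = 1.08e-05), Ifi203 (-1.25, 0.0112), Ifi204 (-1.17, 0.00157) and Helz2 (-1.12, 2.36e-04). Ifi203 and Ifi204 belong to a family of DNA sensors. Eif2ak2, the kinase PKR that stops translation on double-stranded RNA, fell by 0.74 (0.00302), and Adar, which edits double-stranded RNA, fell by 0.44 (0.00157). Trim25, Ifitm3, Zc3hav1 and Znfx1 also fell. Of the genes that did not pass, 6 had 873 fragments or more in every library, namely Mov10 (-0.23), Tdrd7 (-0.14), Isg20 (-0.13), Nampt (-0.07), Plscr1 (0.04) and Ifitm2 (0.10). Znfx1 lost its call whenever a library was left out, and Ifi203 when LPS-labelled replicate 3 was.

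The enzymes and partners the effectors work with were also examined. Of 18 genes of pyrimidine and deoxynucleotide supply, on which viperin, Cmpk2 and Samhd1 act, 16 were tested and 0 passed in the limma fit, with 5 at an unadjusted p under 0.05 and 2 called by voom (Ctps and Rrm1). Ctps was also called without LPS-labelled replicate 2. Cmpk1, the cytosolic counterpart of Cmpk2, had a log2 fold change of 0.04 and Rrm2b, a subunit of ribonucleotide reductase, one of 0.0076. Of 14 genes for partners of Xaf1, inhibitors of apoptosis and caspases, 12 were tested and 0 passed in the limma fit, with 1 at an unadjusted p under 0.05 and 1 by voom. Xiap, whose product Xaf1 binds, was at 24.9, 29.3 and 27.0 FPKM in the LPS-labelled and at 27.5, 29.4 and 29.5 FPKM in the silenced-labelled libraries, with a log2 fold change of 0.09. The mean level of Xaf1 was 12.3-fold higher in the LPS-labelled libraries, while the Xiap levels of the groups overlapped.

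Of 9 dynamin-related genes outside the Mx pair 8 were tested and 0 passed in the limma fit, with 1 at an unadjusted p under 0.05 and 0 by voom. Dnm2, the ubiquitous dynamin, had a log2 fold change of -0.0044. Among relatives and partners of single members, 5 of 9 were tested and 0 passed in limma, at an unadjusted p under 0.05 or by voom. These were Nmi and the genes of the cytosolic iron-sulphur machinery, Ciao1 (0.07), Ciao2a (-0.012), Ciao2b (0.21) and Mms19 (-0.05), which equips enzymes such as viperin with their cluster. Rtp1 and Rtp2, receptor transporters like Rtp4, were at 0 in every library, and Rtp3 had at most 15 fragments.

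The protein-coding genes nearest to each effector among the tested genes, 16 in all, lay between 0 and 2740 kb away. Of these, 1 rose and none fell, with a median log2 fold change of -0.080. At an unadjusted limma p under 0.05 there were 5, as for 2058 of the 11723 tested genes, and voom called 1. The gene that rose was Smtnl2, 75.4 kb from Xaf1 (0.43, limma adjusted p = 0.0400). Med31, on the other side of Xaf1, had 0.44 (adjusted p = 0.0751 by limma). The call of Smtnl2 was lost without LPS-labelled replicate 3 or without any of the 3 silenced-labelled replicates. Mvb12a, 5.46 kb from Bst2, had -0.13 and Plvap on its other side -0.12. Vat1, whose 3′ end lies 46 bases beyond that of Ifi35, had -0.15 and Rpl27 0.11. Masp1, whose span overlaps that of Rtp4, had -0.31 and Bcl6 -0.12. Adgrl2 (-0.11) and Gipc2 (-6.9e-04) flanked Ifi44, Soga1 (-0.054) and Rbl1 (-0.12) flanked Samhd1, Igsf5 (0.012) and Tmprss2 (-0.23) the Mx pair, and Id2 (0.32) and Sox11 (0.11) the Rsad2 and Cmpk2 pair. For each of the 5 effectors that fell, the log2 fold change lay below that of both neighbours. These 5 were picked by their fall, so this order follows from the choice and says nothing of the loci.

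**Figure D4:**
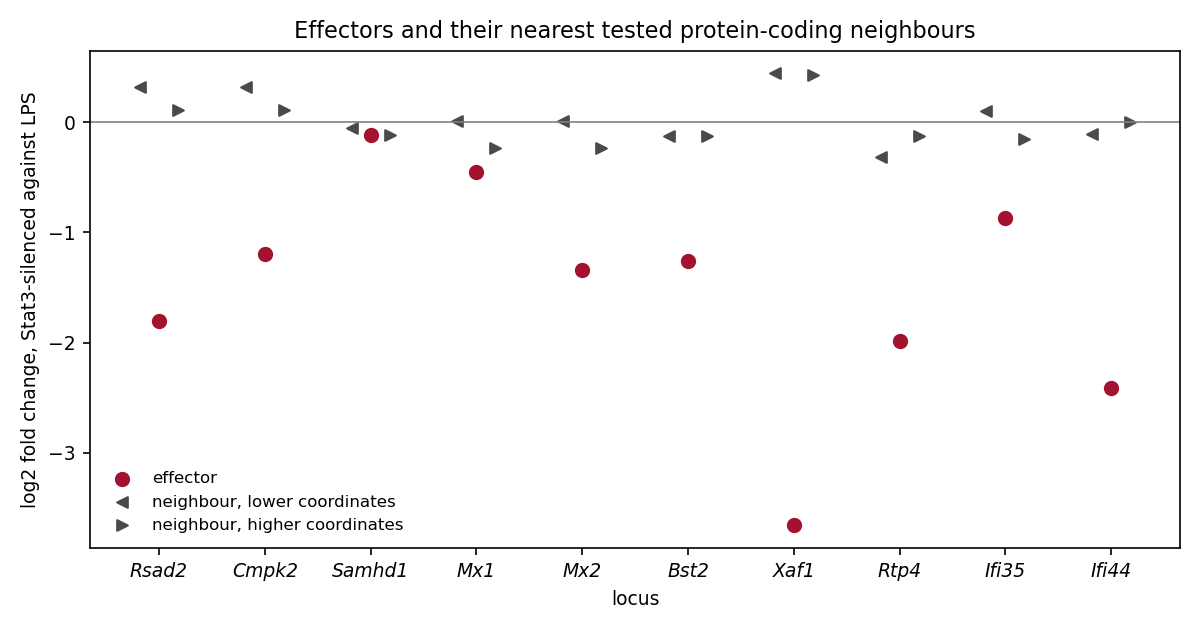
Log2 fold change, silenced-labelled against LPS-labelled libraries, of each effector (red) and of the nearest tested protein-coding gene on either side (grey triangles). The neighbours lie between -0.31 and 0.44, and all 10 effectors lie below both of theirs. Samhd1 does so only narrowly (-0.120 against -0.116 for Rbl1), and the interval of Mx1 (-1.41 to 0.51) holds both its neighbours.

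**Figure D5:**
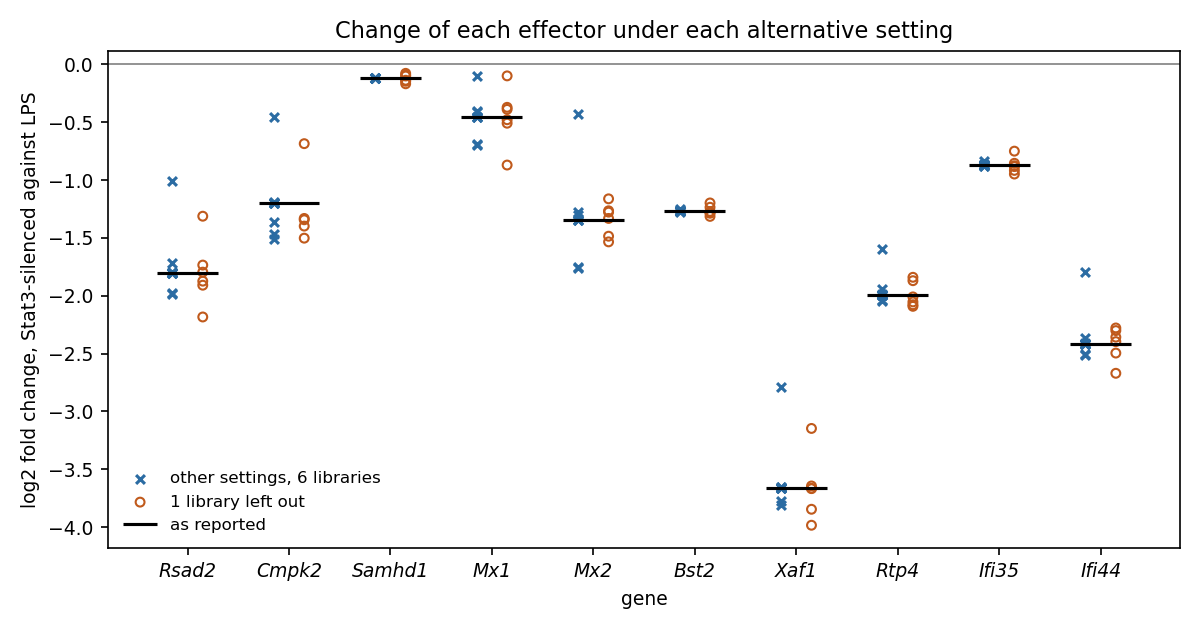
Log2 fold change of each effector as reported (bar), under the other settings with all 6 libraries (crosses) and with 1 library left out (circles). All 154 alternative values lie below 0, and Xaf1 ranged from -3.98 to -2.78.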

How the data were processed

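The 6 RNA-seq libraries of mTECs (LPS, n = 3, and LPS with Stat3 silencing, n = 3) were analysed, and the study's other assays were not used here. The authors deposited FPKM values per gene and library, without pooling. The submitters' processing notes name HISAT2 2.0, StringTie 1.3.0 and Bowtie 0.12.2 and the builds mm8 and GRCh38.p13, without roles, and the gene models are not given in the sources used here. Whether the replicates came from separate cultures is not stated, so p-values measure the spread between these libraries. Of 22442 identifiers, 22399 matched a symbol in GENCODE M21 (GRCm38), whose coordinates are given.

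Fragments were recovered by scaling each FPKM value back with the length of the gene and the total of the library. Of 16837 genes above 0, 16379 (97.3%) gave whole fragments, within 0.02, at the coding length or up to 10 bases more, 369 did so at another length and 89 did not. Of 4741 genes with at least 1000 fragments in every library, 95.8% came out whole, against 0.633% with the totals raised by 0.1%. Intervals on fragments are exact Poisson intervals and cover counting error only.

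Genes were tested with limma 3.58.1 in R 4.3.3 (lmFit, eBayes with trend) on log2(FPKM + 0.1), without covariates, for a mean of at least 0.5 FPKM, with Benjamini-Hochberg adjustment at 0.05. Fold changes are on that scale and understate the change of low genes. The fit was also run on simulated data, but the outcome is not given here, so it lends no support to the calls. As alternatives, pseudocounts of 1 and 0.01, other filters (1 FPKM, 0.1 FPKM or none), quantile normalization, median centring, eBayes without trend, a replicate block, voom on the recovered fragments, and the omission of each library were tried. The members and gene lists were chosen with earlier results of these data known. Genes were named by rule: all members, Stat3, the neighbours, the interferon signal genes, the family partners, Ifnb1, Cmpk1, Xiap, Dnm2, Eif2ak2, Adar and Rrm2b, and up to 4 called genes with the largest change in every other list. The others named were chosen after their values were seen. Some genes covered by the rule are not reported here. Of the lists of endothelial (3 tested), fibroblast (5) and housekeeping genes (10), 0 genes passed in limma, with 0, 0 and 2 at an unadjusted p under 0.05 and 0, 0 and 2 called by voom. Sequences came from RefSeq tables. Python 3.11.15 and matplotlib 3.10.9 were used for tables and figures.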

Additional observations from a re-analysis of the deposited data

How the results depend on the processing

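Of 154 values of the 10 effectors under up to 16 alternatives, all had the reported direction and 151 the reported side of the threshold, the exceptions being the 3 of Rsad2 given above. The count of effectors past the threshold was 5 to 6 with 1 library left out. The count over all genes, 379, became 140 without trend, 213 with the replicate block and 591 by voom (84, 108 and 312 of them lower), and 158 to 356 with 1 library left out, of which 158 without LPS-labelled replicate 3 and 178, 192 and 168 without silenced-labelled replicates 1, 2 and 3. Over all genes above 0, with no filter, it was 266. The replicate numbers did not pair the libraries (correlations of deviations of same-numbered libraries -0.016, -0.0039 and -0.043 over 11723 genes), and under the replicate block the 5 effectors kept their calls, whereas the other antiviral genes past the threshold went from 10 to 7, as they did without trend. The log2 fold change of Stat3 turned to 0.0046, 0.018 and 0.044 without LPS-labelled replicate 1, LPS-labelled replicate 3 and silenced-labelled replicate 1, within -0.064 to 0.044 with 1 library left out. The neighbours past the threshold numbered 0 without filter and without trend, and 0 to 1 with 1 library left out. The nucleotide genes past it numbered 1 under quantile normalization and 2 by voom, and 0 to 1 with 1 library left out. The Xaf1 partners numbered 1 under quantile normalization and by voom. The other antiviral genes numbered 8 to 9 and the interferon signal genes 3 to 4 with 1 library left out. The scaling alternatives moved the median of all genes by under 0.1 on the log2 scale. Cmpk2, Mx1 and Mx2 rested on 3 to 41 fragments per library and passed under no alternative, and the part of depth in this was not tested.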
